A study of Mus musculus with 24 samples.

Results

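Acute phase proteins are plasma proteins of hepatocytes, and 10 mouse genes of this response were followed here: Hp, Orm1, Saa1, Saa4, Crp, Itih3, Itih4 and Steap4, together with the signalling genes Il1r1 and Stat3. They were chosen by symbol, all 10 were found among the 35974 gene symbols of the deposited table, and all 10 were among the 4875 genes with enough signal to be tested. Liver RNA from C3H/HeJ mice was sequenced in 24 libraries. Transgenic (TGA) libraries of class 2, 4 and 8 were set against wild type (WT) libraries of the same classes, with 4 libraries numbered 1 to 4 in each of the 6 groups. The class is the number that ends each library's title. The series title concerns polyploid hepatocytes, so a reading as DNA content is possible, but no label states it. The labels name neither the transgene nor its promoter, give no age, and do not say whether equal numbers mark 1 animal. All groups share the C3H/HeJ background, a strain known for a defective Tlr4, the receptor for bacterial endotoxin. No label says that libraries of a group come from separate animals, so each p-value rests on library-to-library spread that could be technical.

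In the acute phase response, interleukin-1 and interleukin-6 from activated macrophages reach the hepatocyte. Interleukin-1 binds a receptor encoded by Il1r1 and acts through NF-kB, while interleukin-6 acts through the gp130 receptor chain and the transcription factor Stat3. Both work with C/EBP factors to raise transcription of plasma protein genes, and the liver meanwhile lowers the so-called negative acute phase proteins such as albumin.

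Values are given as log2(normalised count + 1), computed from a deposited natural log. They are not scaled to transcript length, so levels of different genes cannot be set against each other. The number of genes above 0 ran from 1624 to 15147 per library, and in libraries with few genes a detected gene receives a high value. More than 7000 genes were held by 4 libraries, namely WT class 2 numbers 1 and 4, WT class 4 number 1 and TGA class 8 number 3. Over all tested genes only 45.9% of values were above 0, so a 0 is reported as listed at 0 and not as absence. Hepatocyte markers were present in every group: of 8 such genes, 7 to 8 were above 0 in TGA class 2 and 3 to 8 in WT class 2, 4 to 7 in TGA class 4 and 1 to 8 in WT class 4, and 3 to 8 in TGA class 8 and 1 to 6 in WT class 8. Their summed level was 14496 to 25723 normalised counts in TGA class 2 and 476 to 8167 in WT class 2, 2041 to 14320 in TGA class 4 and 233 to 12764 in WT class 4, and 1886 to 24490 in TGA class 8 and 432 to 1055 in WT class 8. Ttr was listed at 0 throughout TGA class 4 and Serpina1c throughout WT class 8, and Alb, Apoa1 and Cps1 passed the test of TGA against WT over all classes. In a refit with no mean-dependent prior, a setting given with the processing, at most 1 of these genes passed as higher. The part of the hepatocyte markers in the results on the members was not tested. Fewer hepatocytes and less RNA per hepatocyte cannot be told apart in such libraries. The 8 macrophage and Kupffer cell markers were hardly seen, with at most 4 above 0 in any library and a summed level of at most 154 normalised counts, reached in WT class 8, while in TGA class 2 all 8 were listed at 0.

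The promoters of 4 members are shown because they carry matches to the binding motifs of the factors named above. Sequences are the 250 bases upstream of the gene start from RefSeq (GRCm38.p6), in which 8 of the 10 members were matched by symbol (all but Hp and Orm1). Saa1 lies at chr7:46742981-46743230 on the minus strand, Saa4 at chr7:46732604-46732853 on the minus strand, Itih4 at chr14:30886226-30886475 on the plus strand and Steap4 at chr5:7960222-7960471 on the plus strand, in that build, which is not the mm9 build of the deposited table. Capitals mark matches to the STAT3 motif TTCNNNGAA and the C/EBP motif TTGCNNAA, searched on both strands.
Saa1: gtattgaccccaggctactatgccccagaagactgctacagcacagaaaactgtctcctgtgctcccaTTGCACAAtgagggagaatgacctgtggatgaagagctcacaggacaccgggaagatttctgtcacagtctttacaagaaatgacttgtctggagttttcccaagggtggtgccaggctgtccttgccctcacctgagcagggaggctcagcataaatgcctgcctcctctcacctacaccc
Saa4: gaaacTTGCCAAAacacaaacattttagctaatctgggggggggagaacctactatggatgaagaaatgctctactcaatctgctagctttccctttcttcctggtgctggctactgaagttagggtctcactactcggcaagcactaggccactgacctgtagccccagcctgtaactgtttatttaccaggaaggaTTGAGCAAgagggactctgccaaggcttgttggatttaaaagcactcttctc
Itih4: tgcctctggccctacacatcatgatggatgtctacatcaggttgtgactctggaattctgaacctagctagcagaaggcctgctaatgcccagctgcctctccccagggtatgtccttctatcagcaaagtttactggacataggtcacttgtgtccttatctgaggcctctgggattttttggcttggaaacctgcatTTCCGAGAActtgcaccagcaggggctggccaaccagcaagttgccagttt
Steap4: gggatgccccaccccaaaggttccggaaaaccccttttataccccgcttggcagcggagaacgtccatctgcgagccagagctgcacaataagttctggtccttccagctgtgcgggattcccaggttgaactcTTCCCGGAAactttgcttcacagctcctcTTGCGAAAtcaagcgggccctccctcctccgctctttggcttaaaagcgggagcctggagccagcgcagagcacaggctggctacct
The STAT3 motif was found in Itih4, starting 51 bases upstream of the gene start, and in Steap4, starting 116 bases upstream. Of 32851 mouse promoters of the same length, 7.02% hold it. The C/EBP motif was found in Saa1, in Saa4 at 2 places, in Steap4 and in 1 of the 2 promoters listed for Il1r1, against 9.56% of all promoters. None of these matches overlapped a match to the other motif. The windows of Crp, Itih3 and Stat3 held neither set of letters. A match is a description of the sequence, and these data hold no measurement of binding.

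Members were listed above 0 more often in TGA than in WT libraries of classes 2 and 8. In class 2, 33 of 40 member values (82.5%) were above 0 in TGA and 20 of 40 (50.0%) in WT, while over all 4875 tested genes the shares were 55.1% in TGA class 2 and 54.9% in WT class 2. In class 4, the members were above 0 in 16 of 40 values (40.0%) in TGA and 16 of 40 (40.0%) in WT, against 32.7% in TGA class 4 and 48.8% in WT class 4 for all tested genes. In class 8, 27 of 40 values (67.5%) were above 0 in TGA and 11 of 40 (27.5%) in WT, against 45.4% and 38.3% of all tested values in TGA and in WT. Over all 24 libraries the share was 63.3% of member values in TGA and 39.2% in WT, against 44.4% and 47.4% of all tested values. Without the 4 libraries of over 7000 genes, 11 TGA and 9 WT libraries remained, with shares of 62.7% and 26.7%. The left-out WT number 1 libraries of classes 2 and 4 held 10 members each. The share over all tested genes was not computed for the remaining libraries. These shares are a description over members that were chosen together, and no test was made of them.

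**Figure D1:**
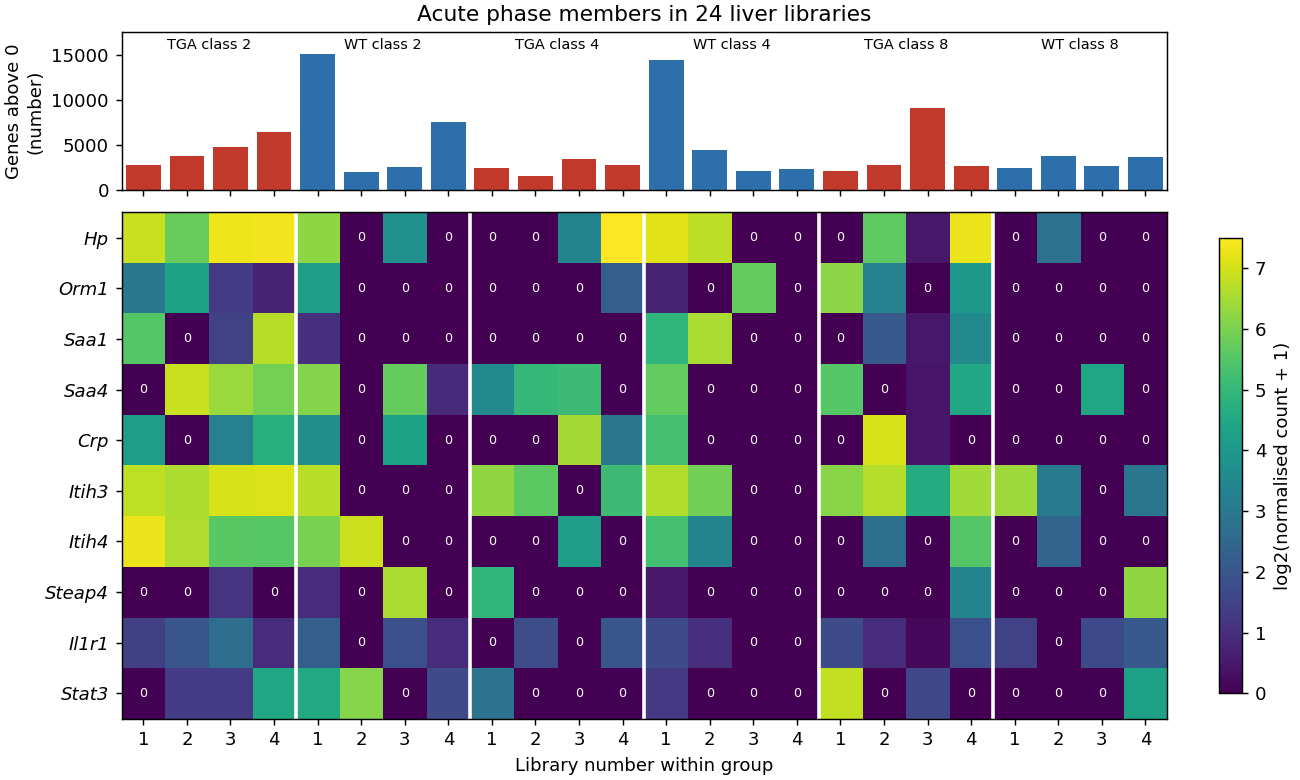
Top, the number of genes above 0 in each of the 24 libraries (red, TGA; blue, WT). Bottom, log2(normalised count + 1) of the 10 members in the same libraries, with 0 written where a member was listed at 0; all 4 TGA class 2 libraries hold at least 7 members, and WT class 4 number 4 holds 0.

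**Figure D2:**
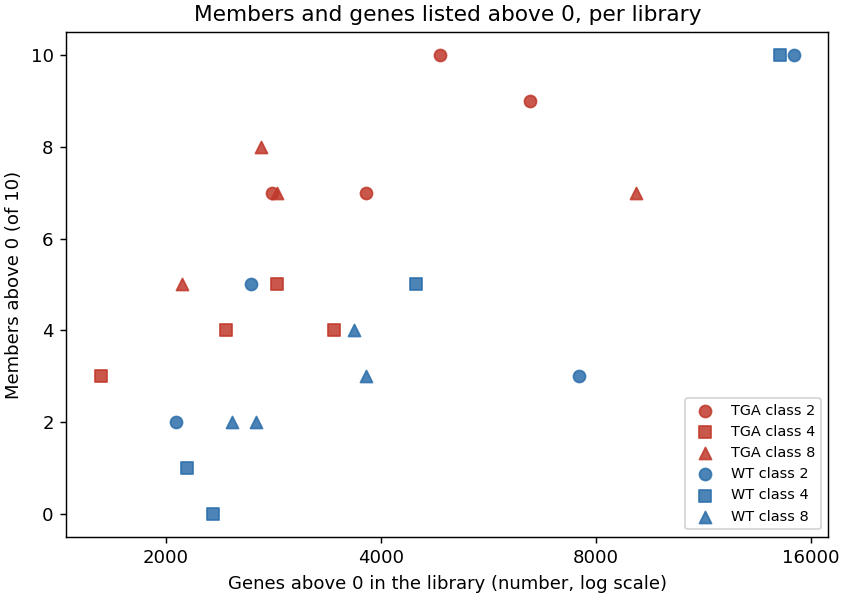
Each point is 1 library, with the number of genes above 0 on a log axis and the number of the 10 members above 0 (red, TGA; blue, WT; the symbol gives the class). WT numbers 1 of classes 2 and 4, with 15147 and 14469 genes, hold all 10 members, and the other WT libraries hold 0 to 5.

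Among the heavy chains of the inter-alpha-trypsin inhibitor family, which are secreted by hepatocytes and bind hyaluronan of the extracellular matrix, Itih3 showed the largest genotype difference of the 10 members. In class 2, Itih3 was 6.77, 6.58, 7.03 and 7.10 in TGA numbers 1 to 4, and 6.72, 0, 0 and 0 in WT numbers 1 to 4. All 4 TGA class 2 libraries were thus high and lay close together, while 3 of 4 WT class 2 libraries were listed at 0 and WT number 1 lay within the TGA range. In class 4 it was 6.24, 5.60, 0 and 5.15 in TGA and 6.63, 5.91, 0 and 0 in WT. In class 8 it was 6.17, 6.67, 4.65 and 6.47 in TGA and 6.40, 3.06, 0 and 2.95 in WT. Itih3 was listed at 0 in 1 of 12 TGA and 6 of 12 WT libraries, and the genotypes overlapped in every class.

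Over all classes, with the 3 libraries of a genotype and number averaged, the Itih3 difference of TGA minus WT was 3.06 (SE 1.11, adjusted p = 0.326, limma), which did not pass the threshold of 0.05. The means were 6.39, 6.28, 3.89 and 6.24 in TGA numbers 1 to 4, and 6.58, 2.99, 0 and 0.98 in WT numbers 1 to 4, and the two-sided exact permutation p was 0.143, where the smallest p possible is 0.0286. In class 2 alone the difference was 5.19 (SE 1.72, adjusted p = 0.334, limma). These calls changed when WT number 1 was left out: without its libraries Itih3 passed over all classes (difference 4.38, SE 1.06, adjusted p = 0.0181) and in class 2 (6.87, SE 1.61, adjusted p = 0.0252). The change was not particular to Itih3. In that refit 95 of 4875 tested genes passed over all classes and 50 in class 2, against 24 and 5 with all libraries. The 2 WT number 1 libraries of classes 2 and 4 are those with the most genes above 0 in the series. Without the 4 libraries of over 7000 genes, which include these 2, 0 members passed over all classes and 0 in class 2.

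Itih4, a related family member whose gene lies beside Itih3 on chromosome 14 and which lacks the site that joins other heavy chains to bikunin, was above 0 in 7 of 12 TGA and 5 of 12 WT libraries. In class 2, Itih4 was 7.29, 6.59, 5.58 and 5.55 in TGA and 5.99, 6.94, 0 and 0 in WT. In class 4 it was 0, 0, 4.22 and 0 in TGA and 5.25, 3.37, 0 and 0 in WT. In class 8 it was 0, 2.72, 0 and 5.50 in TGA and 0, 2.45, 0 and 0 in WT. Its values were thus highest in class 2, where 6 of 8 libraries were above 0, against 3 of 8 in class 4 and 3 of 8 in class 8. Over both genotypes the difference of class 4 minus class 2 was -3.14 (SE 1.15, adjusted p = 0.237, limma) and that of class 8 minus class 2 was -3.41 (SE 1.15, adjusted p = 0.480), and neither passed. The difference of TGA minus WT was 3.02 in class 2 (SE 1.62, adjusted p = 0.610) and 1.12 over all classes (SE 1.01, adjusted p = 0.720), and neither passed.

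The rest of the family was read from the related genes. Itih1, the neighbour of Itih3, was above 0 in 10 of 12 TGA and 2 of 12 WT libraries, with a difference of TGA minus WT of 3.52 (SE 1.05, adjusted p = 0.130, limma). Itih2 was above 0 in 7 of 12 TGA and 4 of 12 WT libraries (1.40, SE 0.90, adjusted p = 0.615). Ambp, which encodes the light chain bikunin, had a genotype difference of 0.58 (SE 0.90, adjusted p = 0.850). None of these passed the threshold.

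Hp, haptoglobin, the plasma protein that binds free haemoglobin, was above 0 in 9 of 12 TGA and 5 of 12 WT libraries. In class 2 it was 6.87, 5.75, 7.30 and 7.35 in TGA and 6.23, 0, 3.78 and 0 in WT. In class 4 it was 0, 0, 3.39 and 7.50 in TGA and 7.17, 6.74, 0 and 0 in WT, and in class 8 it was 0, 5.64, 0.48 and 7.27 in TGA and 0, 2.81, 0 and 0 in WT. TGA class 2 was the only group in which all 4 libraries held Hp, and in class 4 both genotypes had 2 libraries at 0 and 1 above 7. The difference of TGA minus WT was 2.07 over all classes (SE 1.08, adjusted p = 0.555, limma) and 4.32 in class 2 (SE 1.84, adjusted p = 0.536). The difference of class 8 minus class 2 over both genotypes was -2.64 (SE 1.30, adjusted p = 0.673). None of these passed.

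The serum amyloid A proteins are apolipoproteins of high-density lipoprotein, of which Saa1 is strongly induced in the acute phase and Saa4 is known as the constitutive form. Saa1 was 5.54, 0, 1.44 and 6.70 in TGA class 2 and 1.01, 0, 0 and 0 in WT class 2. It was listed at 0 in all 4 libraries of TGA class 4, against 4.93, 6.55, 0 and 0 in WT class 4. In class 8 it was 0, 2.08, 0.48 and 3.55 in TGA, and all 4 WT libraries were listed at 0. The 2.08 was the most frequent value above 0 in its library. The genotypes thus stood in the opposite order in class 4 and in classes 2 and 8. The test of that change between classes 4 and 2 gave the lowest unadjusted p of the 10 members over the 9 comparisons, and did not pass over all genes (limma interaction, adjusted p = 0.767). In class 2 the difference of TGA minus WT was 3.17 (SE 1.41, adjusted p = 0.544), and over all classes it was 0.61 (SE 0.85, adjusted p = 0.831).

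Saa1 is nearly identical in sequence to its neighbour Saa2, and the labels do not say how reads shared between them were counted. Saa2 was above 0 only in WT class 4 number 2, at 6.55, where Saa1 had the same value, which 9 genes of that library share. Saa3, the form made by macrophages and other cells outside the liver as well, was listed at 0 in 24 of 24 libraries. Saa4 was above 0 in 9 of 12 TGA and 5 of 12 WT libraries and was 0, 6.88, 6.38 and 5.95 in TGA class 2 and 6.11, 0, 5.74 and 0.93 in WT class 2. Its values reached 5.13 in TGA class 4 and 5.69 in WT class 4, and 5.52 in TGA class 8 and 4.43 in WT class 8. Saa4 values of 3.57 in TGA class 4 number 1 and 0.41 in TGA class 8 number 3 were the most frequent above 0 in their libraries. The genotypes overlapped in each class, and the difference of TGA minus WT was 1.70 (SE 1.02, adjusted p = 0.596, limma).

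Orm1, orosomucoid, a plasma glycoprotein that carries basic drugs and damps immune responses, was above 0 in 8 of 12 TGA and 3 of 12 WT libraries. In class 2 it was 3.04, 4.34, 1.31 and 0.75 in TGA and 4.16, 0, 0 and 0 in WT. In class 8 it was 6.21, 3.29, 0 and 4.01 in TGA and was listed at 0 in all 4 WT libraries, a contrast with an adjusted p of 0.440 (limma). In class 4, TGA number 4 held 2.26, and WT numbers 1 and 3 held 0.75 and 5.74. The 2.26 was the most frequent value above 0 in its library. Over all classes the difference of TGA minus WT was 1.21 (SE 0.87, adjusted p = 0.646). The paralogs Orm2 and Orm3, whose reads may not be separable from those of Orm1, were listed at 0 in 24 and 22 of 24 libraries.

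Crp, C-reactive protein, is a pentraxin that is a major acute phase protein in humans but is induced only modestly in mice. It was above 0 in 7 of 12 TGA and 3 of 12 WT libraries, and was 4.16, 0, 3.28 and 4.72 in TGA class 2 and 3.72, 0, 4.36 and 0 in WT class 2. It was highest in TGA class 8 number 2, at 7.05, and in TGA class 4 number 3, at 6.48, while WT class 8 was listed at 0 in all 4 libraries. The difference of TGA minus WT was 1.31 (SE 0.91, adjusted p = 0.629, limma). Apcs, serum amyloid P, the pentraxin that is the main acute phase protein of many mouse strains and whose gene lies beside Crp, was listed at 0 in 24 of 24 libraries.

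Steap4, a metalloreductase of iron and copper that is induced by inflammatory cytokines, was above 0 in the fewest libraries of the 10 members, 3 of 12 in TGA and 4 of 12 in WT. Its values above 0 were 1.14 in TGA class 2, 4.94 in TGA class 4 and 3.39 in TGA class 8, in 1 library each, and 0.94 and 6.54 in WT class 2, 0.48 in WT class 4 and 6.27 in WT class 8. No group had more than 2 libraries above 0, and the difference of TGA minus WT was -0.40 (SE 0.74, adjusted p = 0.877, limma).

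Il1r1, the signalling receptor for interleukin-1, was above 0 in 10 of 12 TGA and 8 of 12 WT libraries. Its highest value was 2.67, in TGA class 2 number 3. Of its 18 values above 0, 15 lay under the median of the genes above 0 in the same library. By class, it ran from 0.96 to 2.67 in TGA class 2 and 0 to 2.27 in WT class 2, 0 to 2.02 in TGA class 4 and 0 to 1.75 in WT class 4, and 0.15 to 1.84 in TGA class 8 and 0 to 2.10 in WT class 8. The difference of TGA minus WT was 0.20 (SE 0.80, adjusted p = 0.953, limma), and the interval of 1 SE covers 0.

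Stat3, the transcription factor that carries the interleukin-6 signal to acute phase promoters, was above 0 in 6 of 12 TGA and 5 of 12 WT libraries. In class 2 it was 0, 1.34, 1.31 and 4.46 in TGA and 4.57, 6.14, 0 and 1.71 in WT, so that the 2 highest values of the class were WT. In class 4 it was above 0 in 1 TGA library, at 2.85, and in 1 WT library, at 1.24. In class 8 it was 6.80, 0, 1.61 and 0 in TGA and 0, 0, 0 and 4.29 in WT. The difference of TGA minus WT over all classes was 0.03 (SE 0.87, adjusted p = 0.990, limma), and it turned to -0.0143 with a pseudocount of 5.

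**Figure D3:**
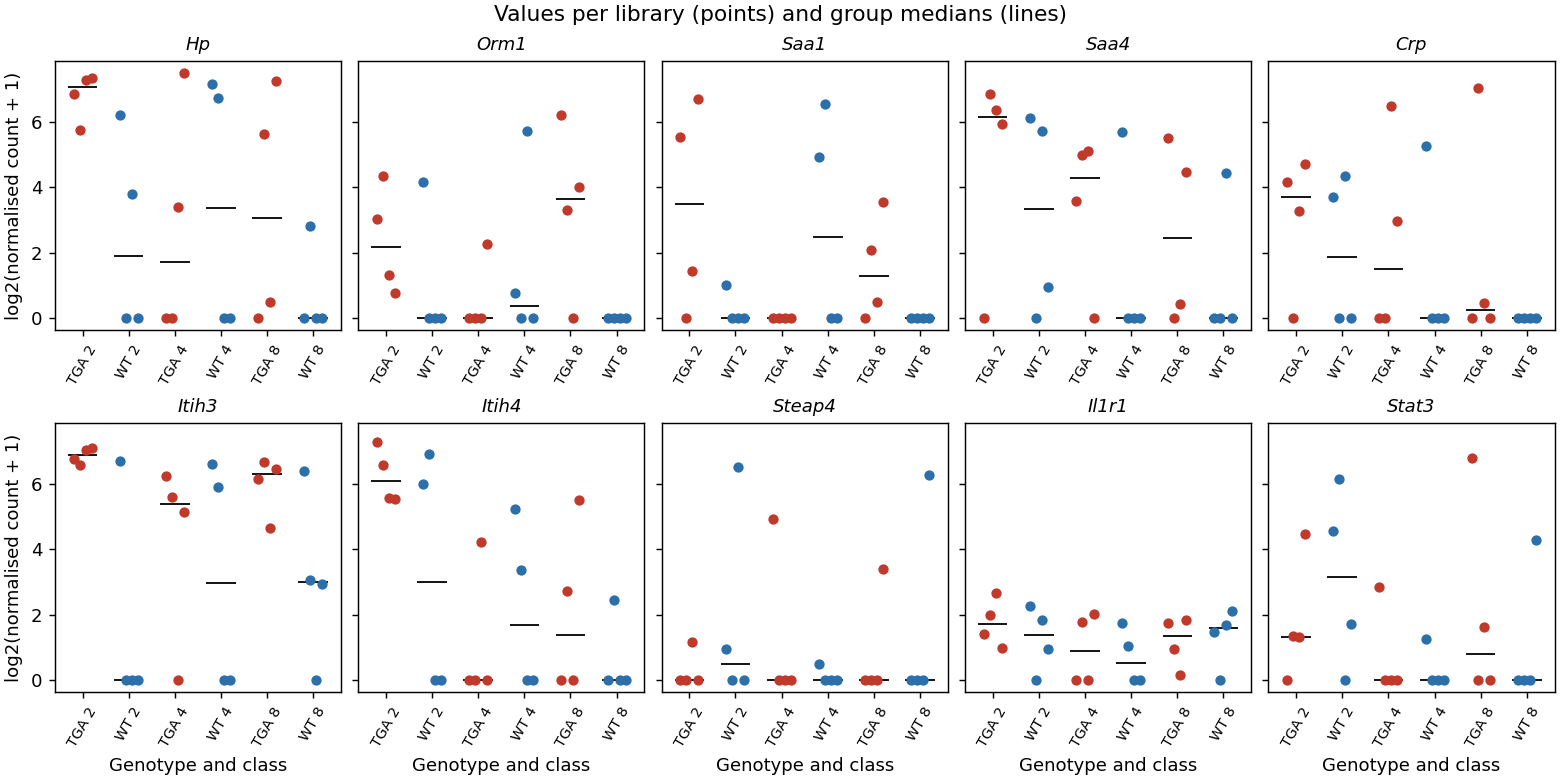
log2(normalised count + 1) of each member in each library (points; red, TGA; blue, WT) by genotype and class, with the group median as a line. Itih3 and Hp are above 0 in all 4 TGA class 2 libraries, and Il1r1 stays at or under 2.67 throughout.

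Across the 9 comparisons, 0 of the 10 members passed the threshold in any. For TGA against WT over all classes, 24 of 4875 tested genes (0.492%) passed, and 1 member, Itih3, had an unadjusted p under 0.05, where 8.88% of all tested genes had one. Of the 10 member differences, 9 were positive, with a median of 1.17, beside 54.7% positive and a median of 0.11 over all tested genes. Of the 8 hepatocyte markers, 8 were positive, with a median of 2.15. Their medians within classes were 4.41 in class 2, 0.73 in class 4 and 1.82 in class 8. Whether the members moved apart from these markers was not tested. In class 2, 0.103% of all tested genes passed, and 3 members (Hp, Saa1 and Itih3) had an unadjusted p under 0.05, where 8.72% of all genes had one; the median difference was 1.46 for the members and 0.15 for all genes. In class 4, 0.0205% passed, with 1 member (Saa1) at an unadjusted p under 0.05, where 4.25% of all genes had one, and medians of 0.33 for the members and -0.15 for all genes. In class 8, 0.0205% passed, with 1 member (Orm1) at an unadjusted p under 0.05, where 9.76% of all genes had one, a share like that of the members, and medians of 1.51 for the members and 0.11 for all genes. The member medians moved with single numbers left out. Over all classes the median was 0.69 without WT number 4, and 2.05 without the 4 libraries of over 7000 genes. In class 2 it was 2.47 when WT number 1 was left out, 0.76 when WT number 2 was, and 0.91 when WT number 4 was. In class 4 it ran from 0.016 without TGA number 1 to 0.66 without WT number 1, and was 0.12 without TGA number 3, 0.18 without WT number 3 and 0.045 without WT number 4. In class 8 it ran from 1.10 to 2.17.

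For class 4 against class 2 over both genotypes, 0.308% of all tested genes passed and the 10 members all had lower values in class 4, with a median difference of -0.69, beside 42.2% positive and a median of -0.23 over all tested genes; 1 member (Itih4) had an unadjusted p under 0.05, where 13.6% of all genes had one. The member median was -1.19 with WT number 2 left out, -1.03 with TGA number 3 left out and -1.29 without the 4 libraries of over 7000 genes. For class 8 against class 2, 0.0205% passed, and 8 of 10 members had lower values in class 8 (median -0.96, beside -0.16 over all genes), with 2 members (Hp and Itih4) at an unadjusted p under 0.05, where 7.36% of all genes had one. Between class 8 and class 4, 0% passed, 5 members had higher and 5 lower values in class 8, and 0 members had an unadjusted p under 0.05 (321 of all tested genes did). The change of the class difference between genotypes gave 0% for class 4 against 2 (1 member, Saa1, and 309 genes at an unadjusted p under 0.05) and 0% for class 8 against 2 (0 members and 198 genes).

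**Figure D4:**
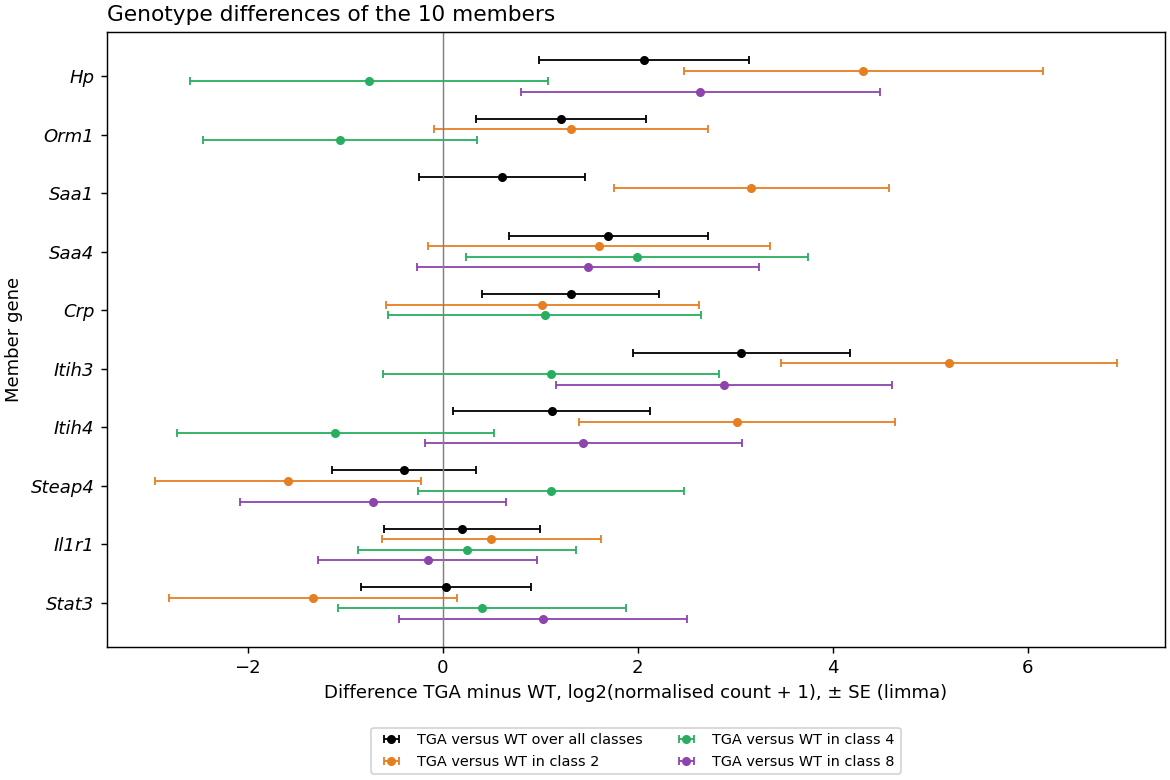
Difference of TGA minus WT in log2(normalised count + 1) for each member over all classes and within each class, with bars of 1 SE from limma. Differences within a class are left out where 1 genotype was listed at 0 in all 4 libraries; 9 of the 10 differences over all classes are above 0, and 0 pass the threshold.

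The other genes of the response were read from lists chosen with the pathway in view. Of 32 further acute phase proteins, 13 were tested and 0 passed in any comparison. TGA minus WT over all classes was positive for 12 of 13 (median 1.40, beside 0.11 over all tested genes). Within classes it was positive for 13 of 13 in class 2 (median 2.92), for 6 of 13 in class 4 (median -0.39) and for 11 of 13 in class 8 (median 2.08). Over all tested genes, 53.9% were positive in class 2, 41.4% in class 4 and 52.6% in class 8. Class 4 minus class 2 was negative for 12 of 13 (median -1.80, beside -0.23). Fga, the fibrinogen alpha chain of the blood clot, ran from 7.55 to 9.78 in TGA libraries, all 12 above 0, and from 0 to 8.50 in WT libraries, with a difference of 2.10 (SE 0.87, adjusted p = 0.435, limma). C3, the central complement protein, was above 0 in 12 of 12 TGA and 7 of 12 WT libraries (3.0, SE 1.09, adjusted p = 0.328), and Pzp, a broad protease inhibitor of the alpha-2-macroglobulin family, in 10 of 12 TGA and 7 of 12 WT libraries (2.21, SE 1.08, adjusted p = 0.542).

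Of 25 genes of interleukin-6 family signalling, 13 were tested and 0 passed. Class 4 minus class 2 was negative for 13 of 13 (median -1.72), and TGA minus WT was positive for 10 of 13 over all classes (median 1.16), and for 10 in class 2, 10 in class 4 and 8 in class 8. Cebpa and Cebpb, which encode C/EBP factors, had genotype differences of 1.16 (SE 1.06, adjusted p = 0.723, limma) and -0.01 (SE 1.06, adjusted p = 0.997). Pim3, a serine/threonine kinase, had one of 2.32 (SE 1.08, adjusted p = 0.511). Socs3, the feedback inhibitor that Stat3 induces, was listed at 0 in 24 of 24 libraries. Of 30 genes of interleukin-1, Toll-like receptor and NF-kB signalling, 7 were tested and 0 passed. TGA minus WT was positive for 7 of 7 over all classes (median 0.95), 6 of 7 in class 2 and 6 of 7 in class 8. In class 4 it was positive for 3 of 7 (median -0.25), near the 41.4% positive over all tested genes (median -0.15). Over all classes the difference was, for Chuk, a kinase of the IkB kinase complex, 1.25 (SE 1.04, adjusted p = 0.694, limma), for its regulatory subunit Ikbkg 1.59 (SE 0.87, adjusted p = 0.577) and for the adaptor Tab2 0.11 (SE 0.96, adjusted p = 0.976). Tlr4 was above 0 in 1 of 12 TGA and 1 of 12 WT libraries.

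Members were also set against each other and against all tested genes over the 24 libraries, which share the same span of detected genes. The closest pairs of members were Hp with Saa1 (Spearman rho 0.718, both above 0 in 9 libraries and both at 0 in 10) and Saa1 with Itih3 (0.716), while Hp with Stat3 had the lowest rho (-0.12). The 3 tested genes closest to Hp were Hmgn5 (0.891), Tnk2 (0.872) and Arap1 (0.861), where the median over all tested genes was 0.202. Closest to Itih3 was Mug1, a murinoglobulin of mouse plasma (0.840), followed by Fam120a (0.828) and Ddx46 (0.827). Closest to Itih4 were Ppp1r3b (0.871), Fkbp8 (0.864) and Smarcd2 (0.843), closest to Saa4 were Dpp9 (0.759), Sun2 (0.758) and Fgfr4 (0.757), and closest to Il1r1 were Mlec (0.777), Kpna4 (0.688) and Nrap (0.681). These are descriptions across 24 libraries in which the shared zeros weigh heavily.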

How the data were processed

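Liver RNA was isolated with a kit made for fixed, paraffin-embedded tissue and sequenced as 75 bp single reads, per the labels' protocols, and TopHat, edgeR and the build mm9 are named in the submitters' processing notes. Versions, counter, annotation and scaling are not stated. From its low steps and from the top value that most libraries share, the deposited table was read as a natural log (count + 1) after quantile normalisation; the authors do not state this, and depth is unknown. Values were converted to log2. The 4875 genes that reached 1 on the deposited scale in 4 or more libraries were fitted with limma 3.58.1 (R 4.3.3, mean-dependent prior, Benjamini-Hochberg over all tested genes), with 1 mean per group over 24 libraries. TGA against WT over all classes used 8 means of 3 libraries, where the prior weighed 152 degrees of freedom against 6 residual ones, so that SEs rest on the spread pooled over genes. For Itih3 the SE from its own 8 means is 1.57. The script was checked on simulated data. Members, lists and alternatives were chosen with earlier results of these data known. The text names all 10 members, list genes past the threshold, the 3 genes per list with the highest mean, and the 3 most similar genes for members above 0 in at least 12 libraries; other genes were named after their values were seen. No protein sequence was used here.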

Additional observations from a re-analysis of the deposited data

Results flagged for a closer look

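Within a group of 4, a value was marked where 1 library stood far from the other 3 (Dixon's test), which chance does for about 1 in 20 groups and which always happens when 3 libraries are listed at 0 and 1 is not. In class 2, the library that stood apart held 4.16 for Orm1, 1.01 for Saa1 and 6.72 for Itih3 in WT number 1 and 6.54 for Steap4 in WT number 3. In TGA class 2 it held 1.14 for Steap4, and Saa4 was listed at 0 in TGA number 1 while the other 3 were above 5. In TGA class 4 it held 2.26 for Orm1, 4.22 for Itih4, 4.94 for Steap4 and 2.85 for Stat3. In WT class 4 it held 5.74 for Orm1, in number 3, and 5.69 for Saa4, 5.26 for Crp, 0.48 for Steap4 and 1.24 for Stat3, all in number 1. In TGA class 8 it held 7.05 for Crp and 3.39 for Steap4. In WT class 8 it held 2.81 for Hp, 4.43 for Saa4, 2.45 for Itih4, 6.27 for Steap4 and 4.29 for Stat3. Of the means over the 3 classes, Itih3 in TGA number 3 (3.89) and Stat3 in WT number 3 (0) stood apart from the other 3 of their genotype. WT number 1 supplied 7 of the marked values, and its class 2 and class 4 libraries had the most genes above 0.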

How the results depend on the processing

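The count of members past the threshold was 0 in 134 of 136 refits over 16 alternatives, 1 of which was chosen after seeing the data. The exception is Itih3 without WT number 1: leaving out each number in turn gave 0 to 1 members for TGA against WT over all classes and in class 2. Leaving out WT number 1 also gave the most tested genes past the threshold there, 95 over all classes and 50 in class 2. Of 295 refitted values of the 19 member differences considered, 4 changed sign. Stat3 over all classes was -0.0143 with a pseudocount of 5 and ran from -0.53 to 0.40, and Il1r1 from -0.0483 to 0.45, with a number left out. The counts of all tested genes past the threshold moved more, and the cause was not tested. Over all classes (24 genes) they were 9 with no filter on low values, 42 with the number of genes above 0 as a covariate, 5 with no mean-dependent prior, 84 without the libraries of over 7000 genes and 10 to 95 with a number left out. In class 2 (5 genes) they were 0 with no filter, 2 with no mean-dependent prior and 0 to 50 with a number left out. In class 4 (1 gene) they were 0 with a pseudocount of 5, no filter, the covariate, no mean-dependent prior or without the library of fewest genes, 7 without the libraries of over 7000 genes and 0 to 9 with a number left out. In class 8 (1 gene) they were 0 with a pseudocount of 5, no filter or the covariate, 2 with no mean-dependent prior, 10 without the libraries of over 7000 genes and 0 to 14 with a number left out. For class 4 against 2 (15 genes) they were 5 with a pseudocount of 5, 0 with no filter, 3 with the covariate, 32 without the libraries of over 7000 genes, 2 without the library of fewest genes and 1 to 20 with a number left out. For class 8 against 2 (1 gene) they were 0 with no filter or the covariate, 4 with no mean-dependent prior and 0 to 1 with a number left out. For class 8 against 4 (0 genes) they were 5 without the libraries of over 7000 genes and 0 to 2 with a number left out, and for the interaction of class 4 against 2 (0 genes) 0 to 1.

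Numbers shared between libraries are not stated to mark an animal. Deviations of same-numbered libraries of a genotype from their group means had correlations across genes of -0.0965 to 0.432 (median 0.0325), against -0.21 to 0.119 (median -0.0142) for other numbers. Of these pairs, 24 were of the same number and 72 of other numbers. Yet 12 of 24 libraries were closest to one of their own number, above the share of same-numbered pairs. The class comparisons treated the libraries as independent, with the replicate block as an alternative. With the replicate block 0 members passed, and the count of all genes became 23 for class 4 against 2, 2 in class 8 and 17 over all classes. Depth is unknown, so no counting error is given, and a value of 0 bounds nothing.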

Other observations

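Of 13 negative acute phase proteins, which inflammation lowers, 12 were tested, and 3 rose and 0 fell in TGA over all classes, beside 0.492% of all tested genes passing. These were Alb, serum albumin (12 of 12 TGA and 7 of 12 WT libraries above 0; difference 5.64, SE 0.98, adjusted p = 8.2e-05, limma), Apoa1 of high-density lipoprotein (10.19 to 14.40 in TGA and 7.87 to 13.42 in WT; 3.71, SE 0.43, adjusted p = 2.73e-11) and Trf, the iron carrier transferrin (9.98 to 13.42 in TGA and 9.53 to 13.27 in WT; 1.61, SE 0.40, adjusted p = 0.0222). With no mean-dependent prior, only 1 of all tested genes passed as higher over all classes, so at most 1 of these 3 rises remained. The difference over all classes was positive for 11 of 12 (median 1.69), beside 54.7% positive and a median of 0.11 over all tested genes. Alb, Apoa1 and Ttr are also among the 8 hepatocyte markers, of which 8 were positive with a median of 2.15. Whether the negative acute phase proteins moved apart from these markers was not tested. In class 2, 1 of the 12 rose, Apoa1 (4.47, SE 0.89, adjusted p = 0.0147, limma). The median there was 3.74, with 11 of 12 positive. Apoa1 was the only tested gene that passed as higher in class 2. With no filter on low values or no mean-dependent prior, 0 genes passed as higher there. The same held without TGA number 2 or 4, or WT number 2, 3 or 4. In class 4, 0 passed, with 8 of 12 positive and a median of 0.019, and in class 8, 0 passed, with 11 of 12 positive and a median of 2.92. Over all tested genes, 41.4% were positive in class 4 and 52.6% in class 8.

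Of 12 further genes of iron handling and the STEAP family, 6 were tested and 0 passed in any comparison. Tfr2, a hepatocyte iron sensor, was above 0 in 10 of 12 TGA and 4 of 12 WT libraries (3.18, SE 1.05, adjusted p = 0.228, limma). Fth1, the ferritin heavy chain that stores iron, was above 0 in 11 of 12 TGA and 8 of 12 WT libraries (2.30, SE 1.11, adjusted p = 0.532). Bmp6, the signal that raises hepcidin, was above 0 in 8 of 12 TGA and 12 of 12 WT libraries (-0.94, SE 0.97, adjusted p = 0.756).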
